A study of Mus musculus with 10 samples.

Results

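The genes described here are the interleukin-6 family ligands Il6, Il11, Lif and Osm, the receptor chains Il6st (gp130), Il11ra1, Lifr and Osmr, the transcription factor gene Stat3 and its feedback inhibitor gene Socs3. They were chosen by gene name, with earlier results of these data known. Among the 56748 genes of the deposited expression table, 10 of 10 were found. Their RNA was measured in 10 mouse gastric tumours with 1 library per tumour, of which 5 were called inflamed-type and 5 desert-type by the submitters. Per the labels, the inflamed tumours came from mice of the genotype Tff1-CreERT2;Apcfl/fl;Trp53fl/fl, in which a tamoxifen-inducible Cre recombinase under Tff1 removes floxed Apc and Trp53, and their treatment was given as genetic mutation. The desert tumours carried the genotype label wild type and were orthotopic allografts, that is, grafts from another mouse placed in the organ of origin. The age of the mice, the alterations carried by the grafted cells and whether wild type describes host or graft are not stated in these sources. Tumour type, genotype, tumour model and the way a tumour was made therefore cannot be told apart in any comparison below. Nothing says that the tumours of a group came from separate litters or graft batches, so p-values measure the spread between these tumours.

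Cytokines of the interleukin-6 family signal through the shared receptor chain gp130. Interleukin-6 and interleukin-11 first bind their own alpha chains, encoded by Il6ra and Il11ra1, and then gp130. Leukaemia inhibitory factor joins Lifr to gp130, and mouse oncostatin M acts mainly through Osmr with gp130. Janus kinases on these receptors phosphorylate Stat3, and Socs3, itself induced by Stat3, binds gp130 and limits the signal. In mice, a gp130 that cannot bind Socs3 gives gastric tumours that depend on interleukin-11 and Stat3. RNA levels show how much transcript was present and do not measure Stat3 phosphorylation.

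The promoters of Socs3, Il6 and Il11 are shown because Il11 and Socs3 had the largest differences in log2(FPKM + 1) of the members and Il6 the largest ratio, and because letters of known binding motifs were found there. The 250 bases before each RefSeq transcription start (GRCm38.p6) are written 5′ to 3′ on the gene's own strand, with motif matches in capitals.
Socs3 promoter (chr11:117969367-117969616, minus strand): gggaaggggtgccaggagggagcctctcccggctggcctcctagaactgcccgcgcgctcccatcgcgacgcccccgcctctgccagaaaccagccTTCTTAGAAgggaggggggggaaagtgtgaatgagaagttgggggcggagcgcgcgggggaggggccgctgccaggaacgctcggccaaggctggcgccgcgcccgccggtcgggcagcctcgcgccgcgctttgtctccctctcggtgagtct
Il6 promoter (chr5:30012864-30013113, plus strand): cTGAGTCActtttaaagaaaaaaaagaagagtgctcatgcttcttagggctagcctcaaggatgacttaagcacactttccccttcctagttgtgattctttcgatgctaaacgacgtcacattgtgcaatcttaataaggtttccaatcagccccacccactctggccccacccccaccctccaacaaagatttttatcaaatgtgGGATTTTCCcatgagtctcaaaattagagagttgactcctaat
Il11 promoter, the second of its 2 RefSeq starts (chr7:4778142-4778391, minus strand): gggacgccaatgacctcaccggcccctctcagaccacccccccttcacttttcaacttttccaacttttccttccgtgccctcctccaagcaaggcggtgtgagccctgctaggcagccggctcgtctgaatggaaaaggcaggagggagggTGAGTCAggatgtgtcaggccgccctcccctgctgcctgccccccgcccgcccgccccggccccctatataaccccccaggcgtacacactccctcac
The capitals in the Socs3 promoter are TTCTTAGAA, a match to the STAT motif TTCNNNGAA that begins 154 bases before the start. In the Il6 promoter they are TGAGTCA, a match to the AP-1 motif TGANTCA that begins 249 bases before the start, and GGATTTTCC, a match to the NF-kB core motif GGANTTTCC that begins 43 bases before it. In the Il11 promoter they are TGAGTCA, an AP-1 match that begins 98 bases before the start. RefSeq windows of 300 bases, from 250 before to 50 after a start, were found for 9 members (12 windows). Both strands were searched, and no match overlapped another. The STAT motif was in 1 member window, that of Socs3, and in 8.30% of all 32851 windows. The AP-1 motif was in 4 member windows, in Il6, Il11, Lif and Osmr, and in 7.81% of all windows. The NF-kB motif was in 1 member window, that of Il6, and in 1.25% of all windows. A match describes letters and does not show that a factor was bound.

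The libraries held 15474313 to 15975770 reads in genes in inflamed tumours and 14148147 to 16951640 in desert tumours, so depth overlapped between the types. The summed FPKM of a library did not overlap. The smallest sum among the inflamed libraries, 280795, lay above the largest among the desert libraries, 269525. Rescaling to TPM, used below as an alternative, gives every library the same sum. Correlations of log2(FPKM + 1) over the tested genes lay between 0.926 and 0.975 for pairs of inflamed tumours, between 0.952 and 0.976 for pairs of desert tumours and between 0.701 and 0.765 for pairs of unlike type. The tissue label is stomach. The summed level of 9 stomach epithelial markers (Gkn1, Gkn2, Tff1, Tff2, Muc5ac, Muc6, Pgc, Atp4a and Atp4b) was 7775 to 42133 FPKM in inflamed tumours and 25.1 to 56.2 FPKM in desert tumours, in which Gkn1, Gkn2, Tff1 and Tff2 were each at 0 in some libraries. Of these 9 markers, 7 were called higher in inflamed tumours. The 5 general epithelial markers (Epcam, Krt8, Krt18, Krt19 and Cdh1) summed to 3204 to 6260 FPKM in inflamed tumours and 1503 to 2195 FPKM in desert tumours. FPKM is a read count scaled by gene length and library size, so levels of different genes can be set side by side.

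Of the 10 members, 7 rose and 2 fell in inflamed relative to desert tumours, and Lifr did not pass the test. The ligands Il6, Il11, Lif and Osm, the receptor gene Osmr, Stat3 and Socs3 were higher, and the receptor genes Il6st and Il11ra1 were lower. Differences are inflamed minus desert in log2(FPKM + 1), on which the change of a weakly expressed gene is understated. They were tested with limma on 16750 genes with a mean of at least 0.5 FPKM, and a gene is called at a Benjamini-Hochberg adjusted p under 0.05. All 10 members passed this filter. Il6 and Osm passed it only through the inflamed tumours (desert means 0.0097 and 0.166 FPKM), so the filter nearly fixed their direction. Without the filter both were called higher (log2 differences 1.45 and 1.15, limma adjusted p = 0.00254 and 0.00645). The 2 tumour types differed widely, with 62.2% of the tested genes called. Higher calls made up 31% of the tested genes and lower calls 31.2%, so being called is common here and the sizes below say more than the count. The median difference of the 10 members was 1.07, and that of the tested genes was -0.0072. As the members were chosen with earlier results of these data known, these medians are a description.

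**Figure D1:**
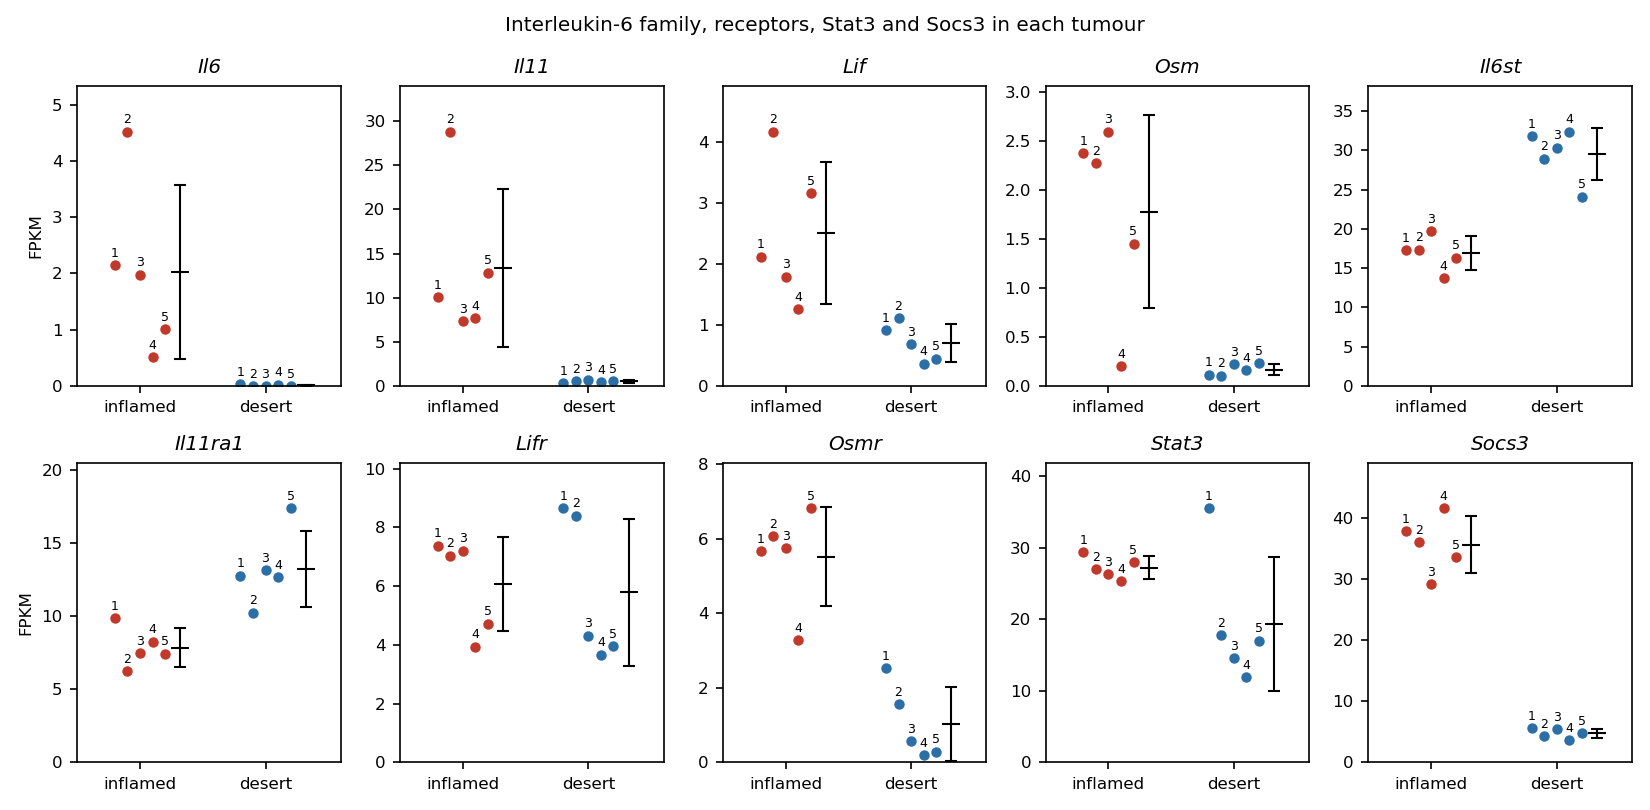
FPKM of the 10 genes in each tumour, with inflamed tumours on the left and desert tumours on the right of each panel; points carry the tumour number and bars give the mean and SD (n = 5 each). The groups do not overlap for Il6, Il11, Lif, Il6st, Il11ra1, Osmr and Socs3, and they overlap for Osm, Lifr and Stat3.

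Among the ligands, Il11 had the largest difference in log2(FPKM + 1) of the 10 members. With 0.01 FPKM added in place of 1, Il6 (6.61) was above Il11 (4.5), and limma voom on the recovered reads gave the same order, with 6.36 for Il6 and 4.42 for Il11. Il11 (ENSMUSG00000004371, chromosome 7, 4775372 to 4785858 in the deposited table) encodes interleukin-11, a cytokine of epithelial and stromal tissues. It was at 10.04, 28.8, 7.34, 7.70 and 12.8 FPKM across inflamed tumours 1 to 5, against 0.344, 0.509, 0.716, 0.455 and 0.557 FPKM in desert tumours 1 to 5. The groups did not overlap, and inflamed tumour 2 stood above the other inflamed tumours. The mean was 13.3 ± 8.92 FPKM in the inflamed type against 0.516 ± 0.137 FPKM in the desert type (SD, n = 5 each), a ratio of 25.8. The log2 difference was 3.07 (SE 0.30, 95% interval 2.41 to 3.73, limma adjusted p = 7.22e-06).

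Il6 was near the limit of detection in desert tumours. Il6 (ENSMUSG00000025746, chromosome 5, 30218112 to 30224979) encodes interleukin-6, the inflammatory cytokine after which the family is named. It was at 2.15, 4.52, 1.98, 0.514 and 1.01 FPKM across inflamed tumours 1 to 5, against 0.0268, 0, 0, 0.0217 and 0 FPKM in desert tumours 1 to 5. Every inflamed tumour lay above every desert tumour, and 3 desert libraries held no read of the gene. The recovered reads were 92, 185, 84, 19 and 40 in inflamed tumours, against 1, 0, 0, 1 and 0 in desert tumours. Relative to the library totals behind the authors' FPKM, summed over each group, the rate of Il6 reads was 217 times higher in inflamed tumours, with a 95% interval of 59.8 to 1800 that covers counting error only. The log2 difference was 1.45 (SE 0.29, 95% interval 0.82 to 2.08, limma adjusted p = 0.00113). At so low a level its size rests on the pseudocount, and it was 3.97 with 0.1 FPKM added in place of 1.

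Lif and Osm lie close together on chromosome 11, and both were low in desert tumours. Lif (ENSMUSG00000034394, chromosome 11, 4207557 to 4222514), which encodes leukaemia inhibitory factor, was at 2.11, 4.16, 1.79, 1.25 and 3.16 FPKM across inflamed tumours 1 to 5, against 0.914, 1.11, 0.686, 0.363 and 0.448 FPKM in desert tumours 1 to 5. The groups did not overlap. The mean was 2.50 ± 1.16 FPKM in the inflamed type against 0.704 ± 0.313 FPKM in the desert type (SD, n = 5 each), and the log2 difference was 0.99 (SE 0.22, 95% interval 0.50 to 1.49, limma adjusted p = 0.0025).

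Osm (ENSMUSG00000058755, chromosome 11, 4186420 to 4191026), which encodes oncostatin M, a cytokine made mainly by blood-derived cells such as neutrophils and macrophages, was at 2.37, 2.27, 2.59, 0.202 and 1.45 FPKM across inflamed tumours 1 to 5, against 0.115, 0.104, 0.219, 0.162 and 0.232 FPKM in desert tumours 1 to 5. Inflamed tumour 4 lay within the range of the desert tumours, and the other 4 inflamed tumours lay above it. The mean was 1.78 ± 0.981 FPKM in the inflamed type against 0.166 ± 0.0585 FPKM in the desert type (SD, n = 5 each), and the log2 difference was 1.15 (SE 0.27, 95% interval 0.57 to 1.74, limma adjusted p = 0.00304). Some marker genes of leukocytes and of stromal cells were also higher in inflamed tumours, but the cell classes differed in this. The summed level of 5 neutrophil markers (S100a8, S100a9, Csf3r, Cxcr2 and Mmp8) was 152, 148, 139, 8.13 and 22.9 FPKM across inflamed tumours 1 to 5, and 0.790 to 1.73 FPKM in desert tumours, with S100a8 and Cxcr2 at 0 in some desert libraries. Of these 5 markers, 4 were called higher. The general leukocyte markers Ptprc, Cd52, Laptm5 and Coro1a, all 4 of them called higher, summed to 61.7, 35.0, 33.5, 23.2 and 69.3 FPKM in inflamed tumours and to 6.25 to 14.8 FPKM in desert tumours. The 5 T cell markers were all called higher, with sums of 6.91 to 21.8 FPKM in the inflamed type against 0.619 to 1.41 FPKM in the desert type. Of 6 macrophage markers 1 was called, with sums of 46.7 to 190 FPKM in the inflamed type against 43.1 to 101 FPKM in the desert type. Of 5 smooth muscle markers (Myh11, Actg2, Des, Acta2 and Cnn1) 4 were called higher, with sums of 71.4 to 794 FPKM in the inflamed type against 7.35 to 40.3 FPKM in the desert type. Of 5 endothelial markers (Pecam1, Cdh5, Kdr, Tek and Emcn) 3 were called higher, with sums of 14.4 to 36.5 FPKM in the inflamed type against 11.2 to 16.0 FPKM in the desert type. Of 6 fibroblast markers (Pdgfra, Col1a1, Col1a2, Dcn, Lum and Thy1) 1, Dcn, was called higher, with sums of 72.1 to 207 FPKM in the inflamed type against 49.0 to 97.5 FPKM in the desert type. The part of any of these cells in the ligand levels was not tested. In bulk RNA, fewer cells of a type and less RNA per cell cannot be told apart.

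The receptor chains did not move together. Il6st (ENSMUSG00000021756, chromosome 13, 112600604 to 112646620), which encodes the shared chain gp130, was at 17.3, 17.3, 19.7, 13.8 and 16.4 FPKM across inflamed tumours 1 to 5, against 31.9, 28.9, 30.3, 32.4 and 24.1 FPKM in desert tumours 1 to 5. The groups did not overlap. The mean was 16.9 ± 2.15 FPKM in the inflamed type against 29.5 ± 3.32 FPKM in the desert type (SD, n = 5 each), a ratio of 0.572. The gene fell by 0.77 on the log2 scale (SE 0.11, limma adjusted p = 0.000108).

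Il11ra1 (ENSMUSG00000073889, chromosome 4, 41699989 to 41769474), the alpha chain for interleukin-11, was at 9.84, 6.25, 7.48, 8.26 and 7.43 FPKM across inflamed tumours 1 to 5, against 12.8, 10.2, 13.2, 12.7 and 17.4 FPKM in desert tumours 1 to 5. The groups did not overlap, so the ligand Il11 was higher and its own receptor chain lower in the same tumours. The mean was 7.85 ± 1.32 FPKM in the inflamed type against 13.2 ± 2.59 FPKM in the desert type (SD, n = 5 each). The gene fell by 0.68 on the log2 scale (SE 0.14, limma adjusted p = 0.00136). The span of Il11ra1 in the table overlaps 6 other genes, and no source used here states whether strand was kept. Among these 6, Ccl27a on the opposite strand was at 1.25 ± 0.172 FPKM in the inflamed type against 3.30 ± 0.180 FPKM in the desert type (SD, n = 5 each; log2 difference -0.94, limma adjusted p = 5.83e-06), and reads of the overlapping genes cannot be told apart from these values. The near copy Il11ra2 reached at most 0.0585 FPKM in any tumour.

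Osmr had the largest difference of the receptor genes among the members. Osmr (ENSMUSG00000022146, chromosome 15, 6843058 to 6904450), the chain that binds oncostatin M with gp130, was at 5.66, 6.07, 5.75, 3.28 and 6.81 FPKM across inflamed tumours 1 to 5, against 2.52, 1.56, 0.569, 0.191 and 0.287 FPKM in desert tumours 1 to 5. The groups did not overlap, and the desert tumours spread widely, the highest being 13.2 times the lowest. The mean was 5.51 ± 1.33 FPKM in the inflamed type against 1.03 ± 0.996 FPKM in the desert type (SD, n = 5 each), and the log2 difference was 1.79 (SE 0.30, 95% interval 1.13 to 2.45, limma adjusted p = 0.000361).

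Lifr (ENSMUSG00000054263, chromosome 15, 7120095 to 7226970), the chain that binds leukaemia inhibitory factor, was at 7.38, 7.04, 7.21, 3.94 and 4.73 FPKM across inflamed tumours 1 to 5, against 8.65, 8.41, 4.31, 3.66 and 3.97 FPKM in desert tumours 1 to 5. Both groups held high and low tumours and they overlapped. The mean was 6.06 ± 1.6 FPKM in the inflamed type against 5.80 ± 2.50 FPKM in the desert type (SD, n = 5 each). The log2 difference was 0.10, with a 95% interval of -0.45 to 0.64 (limma adjusted p = 0.752). Differences of either sign within that interval were not excluded. The sign for Lifr turned when the libraries were rescaled to TPM (-0.17, where the median of all tested genes was -0.28). It also turned when desert tumour 4 was left out (-0.02), and Lifr was called in 0 of 21 alternatives.

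**Figure D2:**
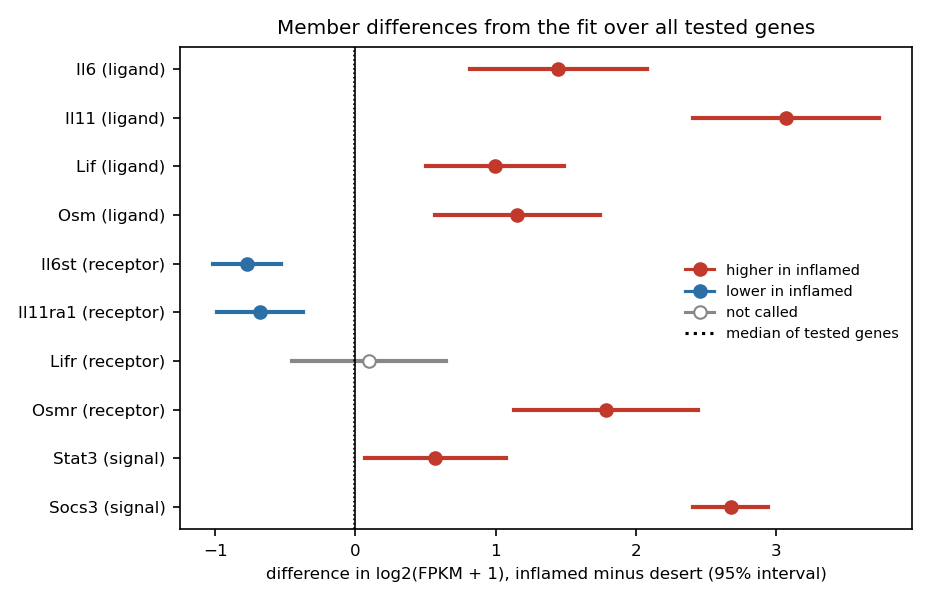
Difference in log2(FPKM + 1), inflamed minus desert, of the 10 genes with 95% intervals from limma on all tested genes; red marks higher, blue lower and grey not called, and the dotted line is the median of all tested genes. Il11 (3.07) and Socs3 (2.68) lie farthest to the right, Il6st (-0.77) and Il11ra1 (-0.68) lie left of 0, and the interval of Lifr spans 0.

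Socs3 had the smallest relative spread of the members that rose several-fold. Socs3 (ENSMUSG00000053113, chromosome 11, 117856905 to 117860873), the feedback inhibitor of gp130 signalling, was at 37.9, 36.1, 29.2, 41.7 and 33.7 FPKM across inflamed tumours 1 to 5, against 5.61, 4.25, 5.42, 3.67 and 4.81 FPKM in desert tumours 1 to 5. The groups did not overlap. The mean was 35.7 ± 4.66 FPKM in the inflamed type against 4.75 ± 0.806 FPKM in the desert type (SD, n = 5 each), a ratio of 7.51. The log2 difference was 2.68 (SE 0.12, 95% interval 2.41 to 2.94, limma adjusted p = 2.36e-08). Its promoter is the one shown above with the STAT motif, and the part of that motif in this difference was not tested.

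Stat3 changed far less, and its call was not stable. Stat3 (ENSMUSG00000004040, chromosome 11, 100775924 to 100830366), the transcription factor activated by the family, was at 29.4, 27.0, 26.3, 25.3 and 28.0 FPKM across inflamed tumours 1 to 5, against 35.5, 17.7, 14.5, 11.9 and 17.0 FPKM in desert tumours 1 to 5. Desert tumour 1 was the highest of the 10 tumours, and the other 4 desert tumours lay below every inflamed tumour. The mean was 27.2 ± 1.57 FPKM in the inflamed type against 19.3 ± 9.31 FPKM in the desert type (SD, n = 5 each), and the log2 difference was 0.57 (SE 0.23, 95% interval 0.07 to 1.07, limma adjusted p = 0.0487). The difference was called in 7 of 21 alternatives. Without desert tumour 1 it was 0.80 (limma adjusted p = 0.000185), whereas without any other single tumour, whether inflamed tumour 1, 2, 3, 4 or 5 or desert tumour 2, 3, 4 or 5, its adjusted p was 0.0641 to 0.112 and it was not called. Stat3 overlaps Stat5a on the opposite strand, which was at 3.83 ± 0.772 FPKM in the inflamed type against 2.71 ± 0.543 FPKM in the desert type (SD, n = 5 each).

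In 7 of the 10 members the groups did not overlap, 5 higher (Il6, Il11, Lif, Osmr and Socs3) and 2 lower (Il6st and Il11ra1), against 48.9% of all tested genes in either direction and 24.4% in each. Of the 5 higher, Il6 passed the filter only through the inflamed tumours, so its direction was nearly fixed. With inflamed tumour 4, low in most members, and desert tumour 1, high in many, both left out, a choice made after the values were seen, 9 members were called, 7 of them higher and 2 lower.

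The order of levels differed between the tumour types. In inflamed tumours it ran Socs3, Stat3, Il6st, Il11, Il11ra1, Lifr, Osmr, Lif, Il6 and Osm in FPKM, from 35.7 to 1.78. Of the neighbours in this order, Stat3 and Il6st did not overlap in range, and each other pair of neighbours did. In desert tumours the order was Il6st, Stat3, Il11ra1, Lifr, Socs3, Osmr, Lif, Il11, Osm and Il6, from 29.5 to 0.0097 FPKM. There the ranges of Il11ra1 and Lifr, of Socs3 and Osmr, of Il11 and Osm, and of Osm and Il6 did not overlap. Of the ligands Il6, Il11, Lif and Osm, the most abundant was Il11 in inflamed tumours and Lif in desert tumours, where Lif and Il11 overlapped in range.

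Ratios of 2 genes within a library do not depend on how libraries are scaled, and they are given as a description. The log2 ratio of Osmr to Lifr, the partner chains of gp130 for oncostatin M and leukaemia inhibitory factor, averaged -0.13 ± 0.37 in the inflamed type against -3.04 ± 1.0 in the desert type (SD, n = 5 each). Both chains were thus at about the same level in inflamed tumours, and Lifr was the more abundant in desert tumours. The log2 ratio of Osmr to Il6st was -1.65 ± 0.30 in the inflamed type against -5.48 ± 1.54 in the desert type. That of Il11ra1 to Il6ra, the alpha chains for interleukin-11 and interleukin-6, was 1.94 ± 0.41 in inflamed and 5.29 ± 0.61 in desert tumours, so Il11ra1 was the higher of the pair in both types. That of Socs3 to Stat3 was 0.39 ± 0.21 in inflamed and -1.93 ± 0.47 in desert tumours. For each of the 4 ratios the ranges of the tumour types did not overlap.

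**Figure D3:**
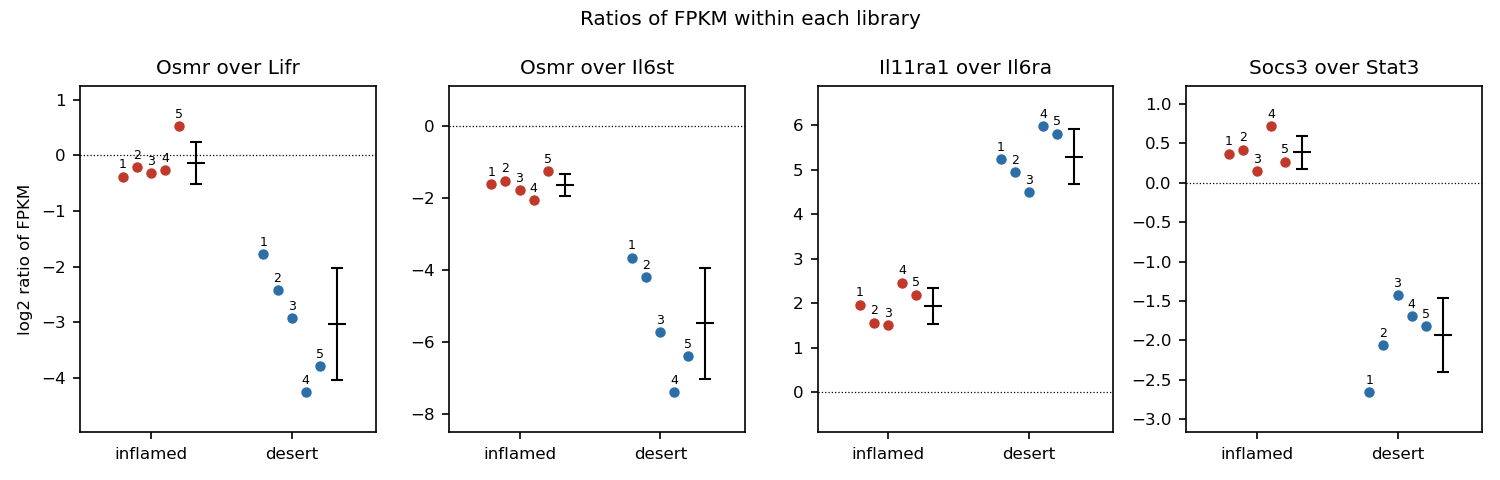
Log2 ratio of FPKM within each library for Osmr over Lifr, Osmr over Il6st, Il11ra1 over Il6ra and Socs3 over Stat3, with inflamed tumours left of desert tumours; points are tumours and bars the mean and SD (n = 5 each). Osmr over Lifr centres on -0.13 in inflamed and -3.04 in desert tumours, and Il11ra1 over Il6ra is the ratio that is lower in inflamed tumours.

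Within each type, single tumours stood out across several members. Inflamed tumour 4 was the lowest inflamed tumour for 7 members (Il6, Lif, Osm, Il6st, Lifr, Osmr and Stat3) and the highest for Socs3. It also had the highest stomach marker sum (42133 FPKM) and the lowest leukocyte marker sum (23.2 FPKM) of the inflamed tumours. Its smooth muscle marker sum was the highest (794 FPKM, the others 71.4 to 392.3 FPKM), and its fibroblast (72.1 FPKM) and endothelial (14.4 FPKM) marker sums were the lowest of that type. The part of these cells in the member levels was not tested. Inflamed tumour 2 was the highest for Il6, Il11 and Lif. Among desert tumours, tumour 1 was the highest for Lifr, Osmr, Stat3 and Socs3, and tumour 4 was the lowest for 5 (Lif, Lifr, Osmr, Stat3 and Socs3). In desert tumours Lifr, Osmr and Stat3 had their highest value in tumour 1 and their lowest in tumour 4.

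**Figure D4:**
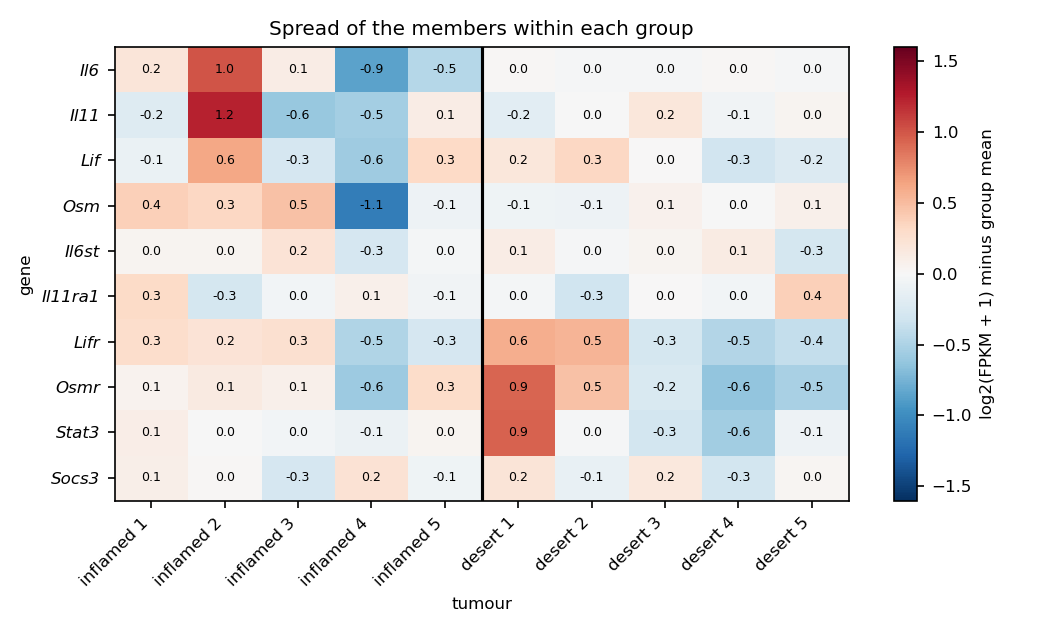
Deviation of log2(FPKM + 1) from the mean of the tumour's own group, for the 10 genes (rows) in the 5 inflamed (left) and 5 desert (right) tumours; red is above and blue below the group mean. Il11 in inflamed tumour 2 (1.2) and Osm in inflamed tumour 4 (-1.1) deviate most, and Osmr and Stat3 are both 0.9 above their mean in desert tumour 1.

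The other genes of the pathway were read from the same limma test, and 83 genes on 8 lists were examined. Beside the list counts stand the 31% of all tested genes that rose and the 31.2% that fell. A gene can pass the filter through a single tumour type, and its direction is then nearly fixed. Examples are Il6ra, Il27ra, Il22ra1, Csf3, Csf3r, Reg1, Reg3b and Reg3g, with desert means under 0.5 FPKM. Stat4, with an inflamed mean under 0.5 FPKM, is an example of the other direction. Of 7 other ligands of the family, 2 passed the filter on low values, 1 rose and 0 fell. Clcf1, a cytokine that signals through the receptor for ciliary neurotrophic factor, was at 4.63 ± 0.403 FPKM in the inflamed type against 1.20 ± 0.525 FPKM in the desert type (SD, n = 5 each; log2 difference 1.39, limma adjusted p = 2.19e-05). Ctf1, which encodes cardiotrophin-1, was at 3.14 ± 0.614 FPKM in the inflamed type against 3.59 ± 1.15 FPKM in the desert type (limma adjusted p = 0.545). Ctf2, Cntf, Il27, Ebi3 and Il31 averaged under the filter, and Il31 was listed at 0 in all 10 tumours.

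Of 5 other receptor chains examined, 2 passed the filter, of which 2 rose and 0 fell. Both had desert means under 0.5 FPKM and passed only through the inflamed tumours, so the filter nearly fixed their direction. Il6ra, the alpha chain for interleukin-6, was at 2.08 ± 0.508 FPKM in the inflamed type against 0.353 ± 0.140 FPKM in the desert type (SD, n = 5 each; log2 difference 1.17, limma adjusted p = 2.44e-05), the opposite direction to Il11ra1. Il27ra, a receptor chain for interleukin-27, was at 0.794 ± 0.365 FPKM in the inflamed type against 0.290 ± 0.270 FPKM in the desert type (log2 difference 0.47, limma adjusted p = 0.0392), a call kept in 10 of 20 alternatives. Leaving out inflamed tumour 1, 2 or 5, or else desert tumour 1, 3 or 5, ended the call (log2 differences 0.39 to 0.45). Il11ra2, Cntfr and Il31ra averaged under the filter.

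Of 9 Janus kinases and other STATs examined, 6 rose, 1 fell and 2 did not pass, with a median difference of 0.43. Jak3 (0.41, limma adjusted p = 0.046) was called in 9 of 21 alternatives, and Stat5a (0.38, limma adjusted p = 0.0284) in 12 of 20. Leaving out any 1 tumour other than inflamed tumour 3 or desert tumour 1 ended the call of Jak3 (0.34 to 0.43), and leaving out inflamed tumour 4 or desert tumour 2 or 4 ended that of Stat5a (0.29 to 0.36). Jak1, the kinase most tied to gp130, was at 21.4 ± 1.78 FPKM in the inflamed type against 9.65 ± 0.310 FPKM in the desert type (SD, n = 5 each; log2 difference 1.07, limma adjusted p = 5.51e-07). Jak2, a kinase of several cytokine receptors, was at 23.5 ± 3.10 FPKM in the inflamed type against 14.1 ± 1.21 FPKM in the desert type (log2 difference 0.70, limma adjusted p = 0.000108). Stat6, which responds to interleukin-4, was at 25.2 ± 3.81 FPKM in the inflamed type against 17.0 ± 1.19 FPKM in the desert type (log2 difference 0.53, limma adjusted p = 0.000995). Stat4, known for its part in interleukin-12 signalling in lymphocytes, was the gene that fell, at 0.376 ± 0.264 FPKM in the inflamed type against 11.9 ± 2.88 FPKM in the desert type (log2 difference -3.22, limma adjusted p = 1.02e-07). In the same tumours the summed T cell markers were higher in the inflamed type, as given above. Stat2, at 22.8 ± 7.82 FPKM in the inflamed type against 16.7 ± 5.61 FPKM in the desert type, and Stat5b, at 8.80 ± 0.652 FPKM in the inflamed type against 8.59 ± 2.36 FPKM in the desert type, did not pass (limma adjusted p = 0.174 and 0.743).

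Of 12 signal inhibitors and phosphatases besides Socs3, 5 rose, 3 fell and 4 did not pass, with a median difference of -0.05. Socs2, a suppressor best known in growth hormone signalling, was at 10.4 ± 1.43 FPKM in the inflamed type against 1.23 ± 0.273 FPKM in the desert type (SD, n = 5 each; log2 difference 2.35, limma adjusted p = 4.91e-08). Cish, a related suppressor induced by Stat5, was at 3.63 ± 1.20 FPKM in the inflamed type against 1.55 ± 0.331 FPKM in the desert type (log2 difference 0.83, limma adjusted p = 0.00125). The phosphatase gene Ptpn11, whose product binds gp130, had a log2 difference of 0.39 (limma adjusted p = 0.000542). Pias3, an inhibitor of Stat3, had one of 0.42 (limma adjusted p = 0.00957), and Socs1 one of 0.66 (limma adjusted p = 0.0421, kept in 9 of 20 alternatives). Ptpn6, a phosphatase abundant in blood cells, was at 11.2 ± 1.57 FPKM in the inflamed type against 27.1 ± 3.04 FPKM in the desert type (log2 difference -1.20, limma adjusted p = 3.43e-06). Socs7 (-0.36, limma adjusted p = 0.00632) and Socs5 (-0.38, limma adjusted p = 0.0419, kept in 9 of 20 alternatives) also fell. Leaving out inflamed tumour 1 or 5, or any 1 of the 5 desert tumours, ended the call of Socs1 (0.45 to 0.69). Leaving out inflamed tumour 1, 2, 4 or 5, or else desert tumour 1, 2 or 4, ended that of Socs5 (-0.41 to -0.29). Socs4, Socs6, Ptpn2 and Pias1 did not pass, with log2 differences of -0.13, -0.20, -0.12 and 0.02. Socs6 was called lower under TPM (-0.52, limma adjusted p = 0.0105), quantile normalization (-0.26, limma adjusted p = 0.0209) and voom (-0.32, limma adjusted p = 0.0439), and Socs4 under TPM (-0.43, limma adjusted p = 0.00943).

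Of 4 genes of receptor shedding, which can release soluble receptor chains from the cell surface, 1 rose and 3 did not pass. Adam10 was at 87.3 ± 11.1 FPKM in the inflamed type against 84.7 ± 11.6 FPKM in the desert type, and Adam17 at 11.4 ± 1.31 FPKM in the inflamed type against 12.8 ± 1.38 FPKM in the desert type (SD, n = 5 each; limma adjusted p = 0.775 and 0.177). Rhbdf1 had a log2 difference of -0.04 (limma adjusted p = 0.805). Rhbdf2, which helps Adam17 mature, was at 9.13 ± 1.0 FPKM in the inflamed type against 6.47 ± 1.70 FPKM in the desert type (log2 difference 0.46, limma adjusted p = 0.0139). With libraries rescaled to TPM the list had 2 calls, Adam10 (-0.26, limma adjusted p = 0.0498) and Adam17 (-0.46, limma adjusted p = 0.00919), and Rhbdf2 was not called (0.22, limma adjusted p = 0.264).

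Of 16 genes known as Stat3 targets, 9 rose, 3 fell and 4 did not pass, with a median difference of 0.84. Over all tested genes 62.2% were called, so a count of calls says little about this list. Lrg1, a secreted glycoprotein of inflammation, was at 114 ± 48.6 FPKM in the inflamed type against 1.25 ± 1.08 FPKM in the desert type (SD, n = 5 each; log2 difference 5.69, limma adjusted p = 2.25e-07). Muc1, a cell surface mucin of epithelia, was at 235 ± 38.4 FPKM in the inflamed type against 9.81 ± 4.2 FPKM in the desert type (log2 difference 4.55, limma adjusted p = 3.22e-07). Il4ra, the interleukin-4 receptor chain, was at 32.1 ± 7.57 FPKM in the inflamed type against 2.18 ± 0.488 FPKM in the desert type (log2 difference 3.36, limma adjusted p = 4.92e-08). Mcl1, a survival factor of the Bcl2 family, was at 81.8 ± 1.86 FPKM in the inflamed type against 43.7 ± 3.71 FPKM in the desert type (log2 difference 0.90, limma adjusted p = 3.39e-06). The 3 genes that fell were the cell cycle gene Ccnd1, the mitosis and survival gene Birc5 and the kinase gene Pim3. Ccnd1 was at 26.2 ± 3.92 FPKM in the inflamed type against 76.0 ± 14.0 FPKM in the desert type (log2 difference -1.49, limma adjusted p = 8.85e-06). Birc5 (-0.63, limma adjusted p = 0.0146) and Pim3 (-0.65, limma adjusted p = 0.0156) had smaller differences. Bcl2l1, Cebpb, Timp1 and Vegfa did not pass, with log2 differences of 0.18, 0.49, 0.29 and -0.12. Cebpb was called without inflamed tumour 4 (0.58, limma adjusted p = 0.0373) or without desert tumour 1 (0.68, limma adjusted p = 0.00137). The epithelial marker sums given above also differed between the types, and their part in the values of genes such as Muc1 was not tested.

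Of 20 acute phase and mucosal defence genes, 14 passed the filter, of which 12 rose, 0 fell and 2 did not pass, with a median difference of 2.80. Reg1, Reg3b and Reg3g passed only through the inflamed tumours, so the 0 that fell and the median rest partly on the filter. The regenerating islet-derived genes Reg1, Reg3b and Reg3g, secreted lectins of the gut, were at 143 ± 66.9, 51.3 ± 25.3 and 61.9 ± 21.8 FPKM in inflamed tumours (SD, n = 5), and each was listed at 0 in all 5 desert tumours. Against a floor of 3 reads per desert library these levels were at least 741-fold higher for Reg1, at least 335-fold higher for Reg3b and at least 748-fold higher for Reg3g. Lcn2, an iron-binding defence protein, was at 95.2 ± 61.1 FPKM in the inflamed type against 14.5 ± 16.9 FPKM in the desert type (SD, n = 5 each; log2 difference 3.00, limma adjusted p = 0.00216). Lbp and Hpx, known as liver products of the acute phase, did not pass (limma adjusted p = 0.482 and 0.832). Saa1, Saa2, Fga, Fgb, Fgg and Orm1, made mainly by the liver, averaged under the filter. The stomach markers, which include mucosal genes, moved with this list, and their part in it was not tested.

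Of 10 genes of other cytokine routes to Stat3, 7 passed the filter, of which 5 rose, 0 fell and 2 did not pass. Among those that rose, Il22ra1, Csf3 and Csf3r, with desert means under 0.5 FPKM, passed only through the inflamed tumours. The 0 that fell therefore rests partly on the filter. Il22ra1, the epithelial receptor chain for interleukin-22, was at 6.11 ± 0.997 FPKM in the inflamed type against 0.303 ± 0.200 FPKM in the desert type (SD, n = 5 each; log2 difference 2.45, limma adjusted p = 1.36e-07). Csf3, which encodes the neutrophil growth factor G-CSF, was at 1.97 ± 1.30 FPKM in the inflamed type against 0.121 ± 0.0616 FPKM in the desert type (log2 difference 1.28, limma adjusted p = 0.00306). Its receptor gene Csf3r, also one of the neutrophil markers above, was at 3.06 ± 1.34 FPKM in the inflamed type against 0.298 ± 0.165 FPKM in the desert type (log2 difference 1.57, limma adjusted p = 0.000321). Il10ra, a receptor chain for interleukin-10 found mostly on leukocytes, was at 3.69 ± 1.62 FPKM in the inflamed type against 0.861 ± 0.414 FPKM in the desert type (log2 difference 1.29, limma adjusted p = 0.000731). Il21r, a lymphocyte receptor chain, had a log2 difference of 0.88 (limma adjusted p = 0.00123). Il10rb, at 9.26 ± 1.96 FPKM in the inflamed type against 6.92 ± 1.46 FPKM in the desert type, and Lepr, at 2.94 ± 1.41 FPKM in the inflamed type against 1.5 ± 1.26 FPKM in the desert type, did not pass (limma adjusted p = 0.0669 and 0.102). Il10rb was called without inflamed tumour 3 (0.46) or desert tumour 1 (0.45), and Lepr without inflamed tumour 4 (0.89) or desert tumour 2 (0.95). The ligand genes Il10, Il22 and Il21 averaged under the filter.

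**Figure D5:**
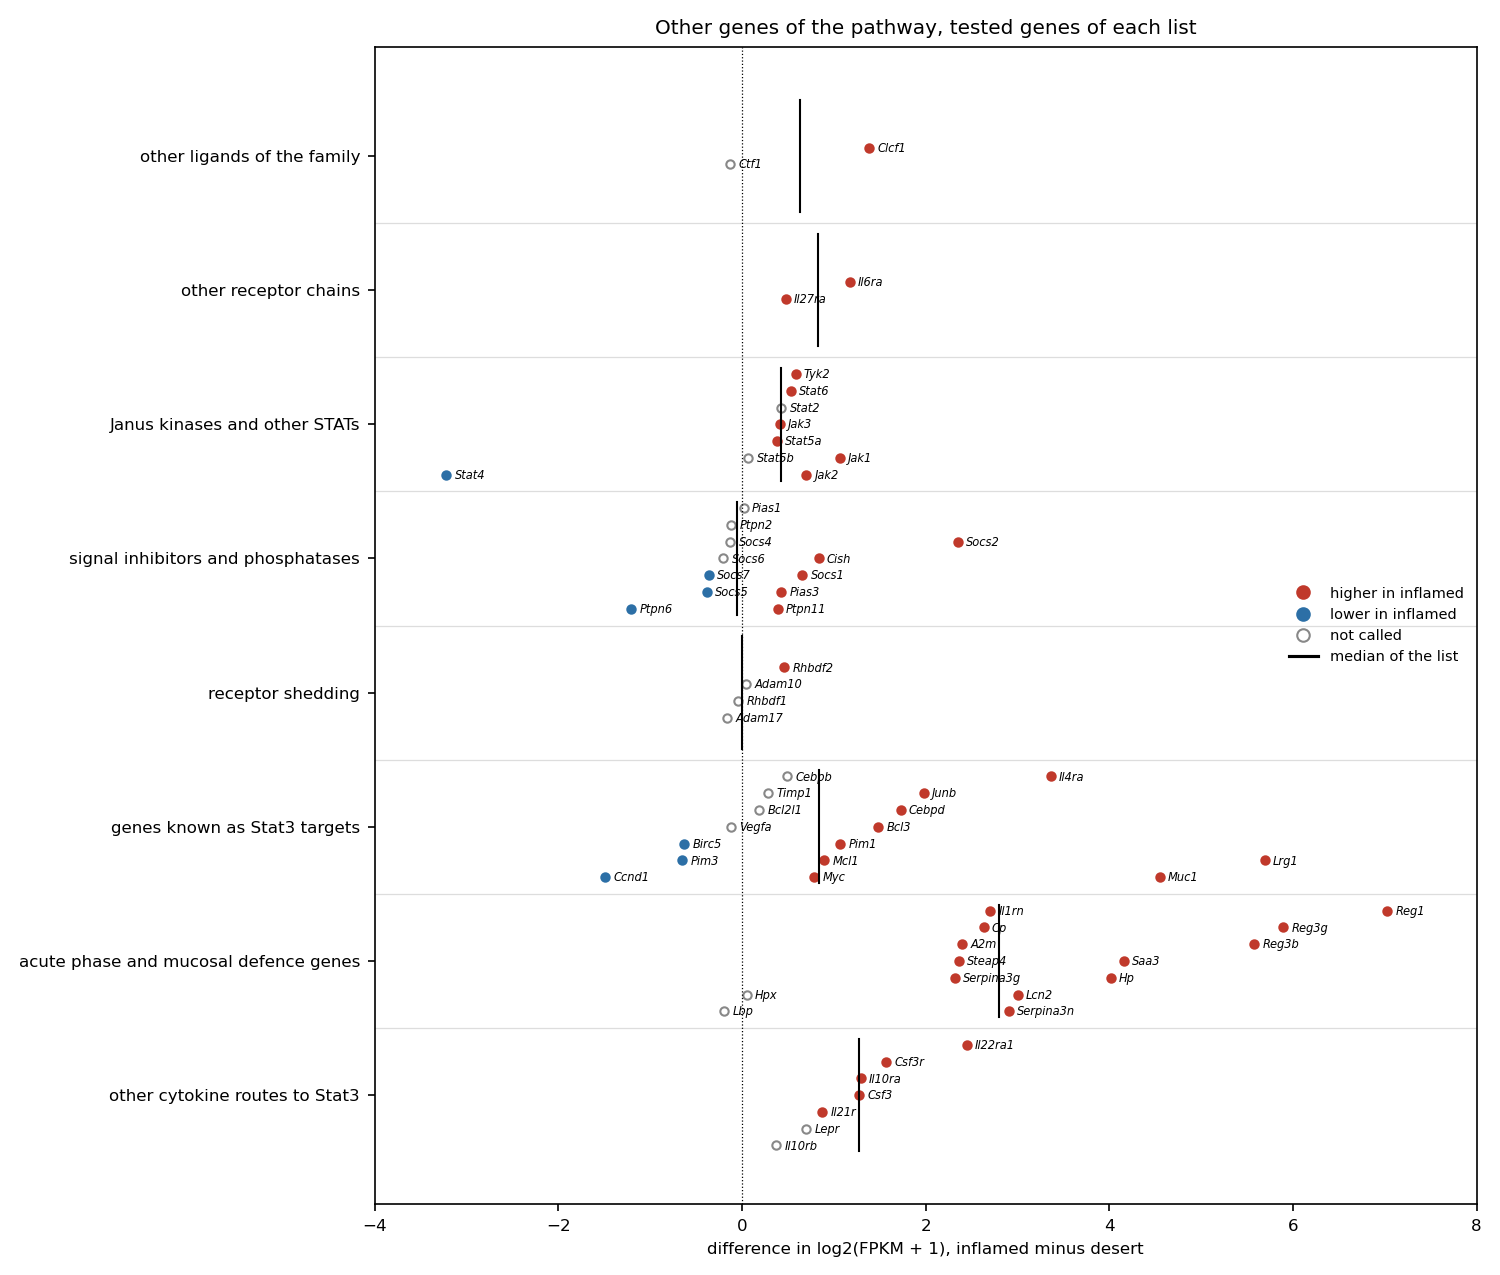
Difference in log2(FPKM + 1), inflamed minus desert, of the tested genes of the 8 lists; red marks genes called higher, blue genes called lower and open points genes not called, and the vertical bar in each row is the list's median. The median is 2.80 for the acute phase and mucosal defence genes, 0.84 for the Stat3 targets and -0.05 for the signal inhibitors and phosphatases. Some of the genes shown passed the filter through a single tumour type.

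Genes with the most similar profile were sought among 13367 named genes by the root mean square difference of log2(FPKM + 1), each gene centred on its mean over the 10 libraries. The profiles are led by the difference between the 2 tumour types, and likeness is given as a description. For Il11 the nearest were Ptgs2 (0.251), which encodes the prostaglandin enzyme cyclooxygenase-2, and Il1rl1 (0.332), the interleukin-33 receptor gene. Ptgs2 was at 8.75 ± 5.22 FPKM in the inflamed type against 0.155 ± 0.121 FPKM in the desert type, and Il1rl1 at 13.5 ± 6.83 FPKM in the inflamed type against 0.210 ± 0.0564 FPKM in the desert type (SD, n = 5 each). For Osm they were the neutrophil attractant gene Cxcl3 (0.161) and the myeloid lectin gene Clec4d (0.170). For Il6 they were Fcamr (0.128) and Trpa1 (0.150), and for Lif Nup62cl (0.202) and Snai2 (0.220), the last a transcription factor of epithelial-mesenchymal transition. For Osmr they were Cebpd (0.234), a transcription factor gene on the list of Stat3 targets, and Tnfrsf23 (0.272). For Socs3 they were Srxn1 (0.141), which encodes sulfiredoxin, and the gap junction gene Gjb2 (0.155). For Stat3 they were Ckap4 (0.127) and Sulf2 (0.129). For the receptor genes that were lower, they were Arl14ep (0.0772) and Cep170 (0.0781) for Il6st, and Cnih2 (0.0938) and Nthl1 (0.117) for Il11ra1. For Lifr they were Arhgap8 (0.179) and Fkbp7 (0.185).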

How the data were processed

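RNA of 5 inflamed-type and 5 desert-type mouse gastric tumours was sequenced. Per the labels' protocols, TRIzol was used to extract total RNA; that text speaks of 6 tumours where the series holds 10. The authors deposited FPKM for 56748 genes, with a gene length in bases (another unit). The submitters' processing notes name the build mm10. Aligner, counter, annotation and strand setting: each is not given in the sources used here. Positions are those of the table, with no build named, since they did not match that build's annotation, and promoters are RefSeq GRCm38.p6.

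FPKM times gene length gave whole multiples of 1 step per library (100% of the nonzero values, tolerance 0.01), from which reads were recovered; depth was 14148147 to 16951640 reads in genes. Tumours were grouped by their titles. Log2(FPKM + 1) was tested with limma 3.58.1 in R 4.3.3 (two-sided, with trend and robust moderation and no covariate besides tumour type, genes with mean FPKM of at least 0.5, Benjamini-Hochberg over 16750 genes, threshold 0.05), after the code was tested on simulated data. Tables and figures used Python 3.11.15, pandas 2.3.3, numpy 2.4.6, scipy 1.17.1 and matplotlib 3.10.9.

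The members and lists were chosen with earlier results of these data known, and 2 list genes are not reported here. All members are named. From each list the 3 called genes of largest difference, the 2 of highest mean FPKM and those needed for a count of 5 or fewer are named, and for each member the 2 genes of most similar profile. Stat5a and Ccl27a were added for overlap with members, and Jak3 after its values were seen. Alternatives were pseudocounts of 0.1 and 0.01, no filter, mean FPKM of at least 5, TPM, median-of-ratios and quantile scaling, limma without trend and robust moderation, limma voom on recovered reads (mean of at least 10), each library left out in turn, and tumour number added as a block. Leaving out inflamed tumour 4 and desert tumour 1 together was chosen after the data had been seen. Intervals on reads cover counting error only.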

Additional observations from a re-analysis of the deposited data

Results flagged for a closer look

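Within a group of 5 tumours, a highest or lowest value was set apart when its gap to the nearest other tumour exceeded 0.71 of the group's whole range (Dixon's 95% critical value). Chance sets apart about 1 in 20 groups, and 12 of the 121 groups checked met this, 2 of them among the 20 groups of members. The members were Il11 in inflamed tumour 2 (28.8 FPKM, the other inflamed tumours 7.34 to 12.8 FPKM) and Stat3 in desert tumour 1 (35.5 FPKM, the other desert tumours 11.9 to 17.7 FPKM). Desert tumour 1 was also set apart as the highest desert tumour for Lcn2 (44.2 FPKM, others 1.78 to 9.83 FPKM), Vegfa (90.9 FPKM, others 30.3 to 41.9 FPKM) and Rhbdf2 (9.41 FPKM, others 5.20 to 6.39 FPKM). Desert tumour 4 was set apart as the lowest for Stat6 (14.9 FPKM, others 17.2 to 17.8 FPKM) and Ccnd1 (52.0 FPKM, others 77.5 to 86.9 FPKM). Among inflamed tumours, tumour 2 was set apart as the lowest for Stat5b (7.65 FPKM, others 8.92 to 9.20 FPKM). The remaining 4 were the highest inflamed values of Pias3 in tumour 4 (12.01 FPKM, others 7.37 to 8.12 FPKM), Stat5a in tumour 4 (5.18 FPKM, others 3.26 to 3.77 FPKM), Socs5 in tumour 3 (4.86 FPKM, others 3.02 to 3.47 FPKM) and Birc5 in tumour 5 (10.9 FPKM, others 5.51 to 7.05 FPKM).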

How the results depend on the processing

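Il6, Il11, Lif, Osm, Il6st, Il11ra1, Osmr and Socs3 kept their direction and call under each alternative that gave a value; Il6, Lif, Osm and Osmr have none at a mean FPKM of at least 5, which they do not reach. Rescaling to TPM moved the median of all genes to -0.28 (3769 higher and 6989 lower calls, 35.0% higher, against 5197 and 5221, 49.9%), and quantile normalization to -0.11. At a mean FPKM of at least 5, with fewer genes tested (8466), 5854 genes were called (2784 higher, 3070 lower) and 5 members (3 higher). Stat3 was not called without a filter (0.57, adjusted p = 0.0846), under TPM (0.29, adjusted p = 0.256), quantile normalization (0.52, adjusted p = 0.0508), limma without trend and robust moderation (0.57, adjusted p = 0.0515) or voom (0.53, adjusted p = 0.0518); the cause was not tested. Lifr turned under TPM (-0.17) and without desert tumour 4 (-0.020).

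With each library left out in turn, 9828 to 10311 genes were called (4893 to 5165 higher, 4929 to 5146 lower), with 8 to 9 members (6 to 7 higher, 2 lower). Of the list genes 44 to 49 were called, against 48. Those of the 83 list genes under the filter were not tested and could not be called. The log2 differences then ranged from 1.19 to 1.66 for Il6, 2.76 to 3.22 for Il11, 0.84 to 1.14 for Lif, 1.04 to 1.43 for Osm, -0.84 to -0.70 for Il6st, -0.76 to -0.58 for Il11ra1, -0.020 to 0.24 for Lifr, 1.63 to 2.02 for Osmr, 0.43 to 0.80 for Stat3 and 2.60 to 2.74 for Socs3.

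Same-numbered tumours did not deviate together (correlations of deviations from the group means -0.0737 to 0.0763), so the numbers show no pairing; with the number as a replicate block 9925 genes and 9 members were called. Voom on the recovered reads called 5231 genes higher and 5790 lower.

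The adjusted p-values here are from limma. Of the named list genes, those not called turned sign as follows. Under TPM the values were -0.26 for Adam10, -0.21 for Stat5b, -0.26 for Pias1, -0.10 for Bcl2l1 and -0.12 for Hpx. Under quantile normalization they were -0.10 for Adam10, -0.020 for Pias1 and -0.16 for Hpx. Under voom they were -0.026 for Adam10, -0.044 for Pias1 and -0.10 for Hpx, and with a pseudocount of 0.01 Hpx was at -0.059. With each library left out in turn the values ranged from -0.022 to 0.12 for Adam10, -0.096 to 0.17 for Stat5b, -0.0085 to 0.049 for Pias1, -0.11 to 0.075 for Rhbdf1, -0.24 to 0.15 for Vegfa and -0.063 to 0.16 for Hpx. Without inflamed tumour 4 and desert tumour 1 they were 0.071 for Ptpn2, 0.10 for Rhbdf1, 0.20 for Vegfa and 0.023 for Lbp. Under TPM Ptpn11 (0.11, adjusted p = 0.388), Pias3 (0.18, adjusted p = 0.18) and Rhbdf2 (0.22, adjusted p = 0.264) lost their call, and without both inflamed tumour 4 and desert tumour 1 Birc5 (-0.54, adjusted p = 0.054) and Pim3 (-0.52, adjusted p = 0.0591) did. For the few reads of Il6 and Osm in desert tumours, depth limits the size of the difference.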
